A study of Chlamydomonas reinhardtii with 4 samples.

Results

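CPX1, CRD1 and CTH1 are the genes of the unicellular green alga Chlamydomonas reinhardtii for 2 oxygen-dependent steps on the way to heme and chlorophyll that are known to be tied to copper nutrition. They were taken by their symbols in the deposited tables, and all 3 were found once among 17741 genes. CPX1 encodes coproporphyrinogen III oxidase of the plastid. CRD1 and CTH1 encode alternative forms of the di-iron subunit of the aerobic cyclase, which closes the fifth ring of the chlorophyll molecule. Wild-type cells of strain FACHB-1121 were grown in TAP, an acetate medium, at one light level with constant agitation. Cultures exposed to silver nanoparticles (AgNPs) at 0.5 mg/L and control cultures without them were sampled at 12 h and at 2 h, with 1 library in each of these 4 groups (the exposed and the control libraries).

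Tetrapyrrole synthesis starts from glutamate, makes a ring intermediate shared by heme and chlorophyll, and then splits into an iron and a magnesium branch. CPX1 acts before the split and the cyclase in the magnesium branch. In Chlamydomonas, copper deficiency is known to raise CPX1 and CRD1 transcripts through the regulator CRR1. CTH1 is known as the reciprocal gene, used in copper-replete, oxygenated cells. In copper-deficient cells CTH1 is also known to give a longer transcript from an upstream start that is not translated. Values per gene do not separate these transcript forms.

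Levels are given in FPKM, fragments scaled to transcript length and library size. With 1 library a group there was no error between replicates and no test at either time alone, so differences are described by their size and by their place among the 3271 genes whose mean reached 5 FPKM (called compared genes). A log2 ratio is that of FPKM + 1 unless stated otherwise, and 2-fold on that scale was the limit for counting a difference. Summed over all genes, the deposited values came to 1663726 FPKM in exposed cells and 1143199 FPKM in control cells at 12 h, and to 1252796 and 492502 FPKM in exposed and control cells at 2 h. Read depth is unknown. Steps between values under 0.2 FPKM gave relative depths, with the 2 h control library set to 1, of 0.363, 0.566 and 0.566 for the first 3 of these libraries, an estimate that 10.04% to 13.97% of low genes met within 0.05 (log2). Cultures were measured in bulk, so fewer cells expressing a gene and less RNA per cell cannot be told apart. Ratios between 2 genes of one library do not depend on the scaling of that library, and are given beside the differences for that reason.

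The cyclase gene CRD1 (Cre07.g346050, chromosome 7, 4866866 to 4871395) differed 3.02-fold between exposed and control cells at 2 h in the values as deposited. It stood at 207 FPKM in the 2 h exposed library, against 68.6 in the 2 h control library, and at 45.9 FPKM in the 12 h exposed library, against 36.1 in the 12 h control library. The 2 h exposed library was thus high, and the other 3 lay within a narrower range. At 2 h the log2 ratio was 1.58, which placed CRD1 at rank 122 from the top of 3271 compared genes, whose median log2 ratio was 0.48. Among the 402 other compared genes within 2-fold of its mean level, 24 had a higher ratio. At 12 h the difference was 1.27-fold (log2 ratio 0.34), below the median compared gene (0.44) and at rank 1810 from the top. It was negative with centred ratios (-0.10), by median ratio (-0.12) and with equal sums (-0.19). By rank of level among all 17741 genes, CRD1 was at place 299 in the 2 h exposed library and 428 in the 2 h control library, and at place 855 in the 12 h exposed library and 765 in the 12 h control library. As a share of the FPKM sum the 2 h libraries lay closer, at 165 per 1000000 with AgNPs and 139 per 1000000 in the control.

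CTH1 (Cre12.g510050, chromosome 12, 2024726 to 2027967), the counterpart of CRD1, stood lower in the exposed library at both times. It had 65.9 FPKM in the 2 h exposed library, against 102 in the 2 h control library, and 16.4 FPKM in the 12 h exposed library, against 24.5 in the 12 h control library. Both differences were under 2-fold, with log2 ratios of -0.62 at 2 h and -0.55 at 12 h. They were nevertheless in the low tail of all genes, at rank 178 from the bottom at 2 h and 185 at 12 h. Of 598 compared genes of like mean level, 24 had a lower ratio at 2 h and 21 at 12 h. The direction was the same under each rescaling of the libraries, and the 2 h value was -1.10 once ratios were centred on the median compared gene. With the 12 h control library in place of the 2 h one it was 1.39, a value in which exposure and time cannot be told apart.

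CPX1 (Cre02.g085450, chromosome 2, 1646979 to 1650920) did not follow CRD1. It stood at 76.4 FPKM in the 2 h exposed library, against 55.8 in the 2 h control library, and at 3.23 FPKM in the 12 h exposed library, against 5.41 in the 12 h control library. The libraries split by time and not by exposure, with both 12 h values far below both 2 h values. The log2 ratio of 0.45 at 2 h was close to that of the median compared gene (rank 1712 from the top), and it turned negative when the libraries were scaled to equal sums (-0.88), by median ratio (-0.11) or with centred ratios (-0.03). The log2 ratio of -0.60 at 12 h was at rank 150 from the bottom. Of 804 compared genes of like mean level, 26 had a lower ratio at 12 h.

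Counted together, 1 of the 3 genes was at least 2-fold higher with AgNPs at 2 h, where 22.0% of all compared genes were, and 0 were at least 2-fold lower, where 1.62% were. At 12 h 0 were higher, against 16.7% of compared genes, and 0 were lower, against 0.459%. In a group of 3 genes, 1 gene past the limit is near that background. With libraries scaled to equal sums CRD1 too was under 2-fold at 2 h (log2 ratio 0.25).

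Both times were also taken as 2 pairs of an exposed and a control library, in a limma fit of exposure and time over all 4 libraries that was chosen after the data were seen. The 3 genes too were chosen with earlier results of these data known, so the limma p-values are not those of genes fixed beforehand. This fit has 1 residual degree of freedom a gene, borrows spread from all compared genes, and takes any difference between the effects at both times as error. The borrowed spread counted for 6.49 degrees of freedom, so each SE came mostly from other genes. CTH1 was lower in exposed cells in 2 of 2 pairs, with a mean log2 effect of -0.59 ± 0.19 (SE) and a Benjamini-Hochberg adjusted limma p of 0.0381. CRD1 was higher in 2 of 2 pairs in the values as deposited, with a mean of 0.96 ± 0.30 (SE) and an adjusted limma p of 0.0318. Its effects were unequal, 1.58 at 2 h and 0.34 at 12 h. The 12 h effect was below the median compared gene (0.44). CPX1 had a mean of -0.08 ± 0.27 (SE) and an adjusted limma p of 0.827. The same limma fit called 42.1% of compared genes higher and 4.77% lower, so a call of a higher gene was common. With centred libraries the adjusted limma p was 0.00842 for CTH1 and 0.131 for CRD1, and with equal sums 0.0189 for CTH1 and 0.981 for CRD1. The call for CRD1 thus depended on the scaling, and that for CTH1 did not among these 3 scalings. With equal sums the SE was 0.446 for each of the 3 genes. That fit thus used a common spread, and its p for CTH1 reflects the size of the effect and no spread of CTH1 itself. Calls of a lower gene were more common in the rescaled fits. Of 3271 compared genes, 156 were called lower as deposited, 446 when centred (577 higher) and 237 with equal sums (18 higher).

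**Figure D1:**
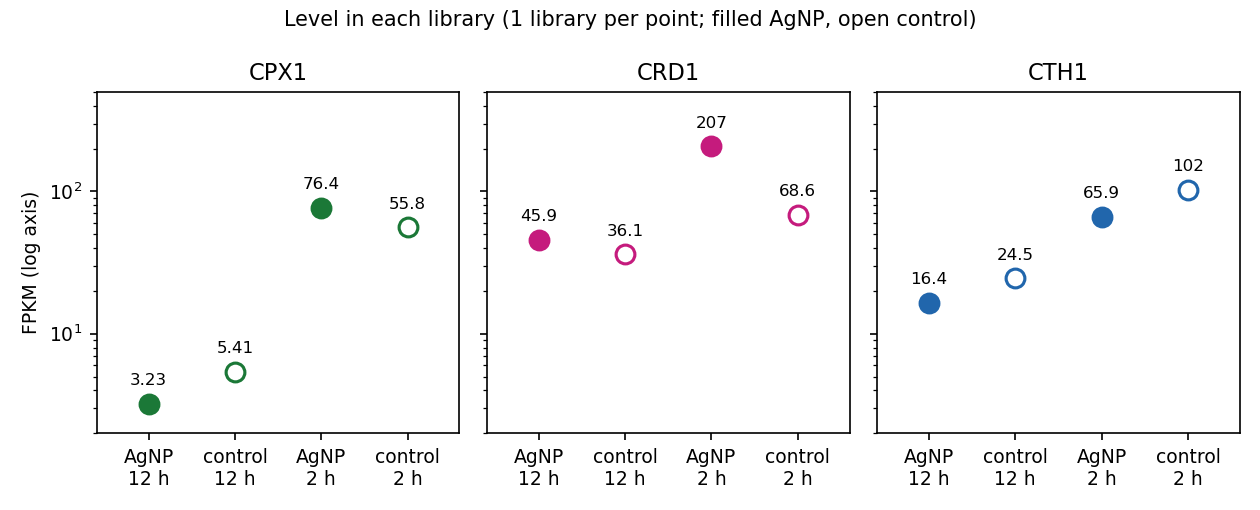
FPKM (log axis) of CPX1, CRD1 and CTH1 in the 4 libraries, 1 point a library, filled for AgNPs and open for controls. CRD1 is highest in the 2 h exposed library (207), CTH1 in the 2 h control library (102), and CPX1 is at 3.23 and 5.41 in the 12 h libraries.

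The CRD1 to CTH1 ratio was higher in the exposed library at each time, but past 2-fold at 2 h only. This comparison does not move with library scaling. The ratio of CRD1 to CTH1 was 3.15 in the 2 h exposed library, against 0.673 in the 2 h control library, so that CTH1 was the higher gene in that control alone. It was 2.80 in the 12 h exposed library, against 1.48 in the 12 h control library. Both exposed libraries lay above both controls. The ratio was 4.68-fold higher with AgNPs at 2 h (log2 difference 2.23) and 1.90-fold higher at 12 h (log2 difference 0.92). The 12 h difference was smaller than that between both control libraries (2.19-fold). Put as a share, CRD1 made up 75.9% of the summed FPKM of both genes in the 2 h exposed library, against 40.2% in the 2 h control library, and 73.7% in the 12 h exposed library, against 59.6% in the 12 h control library.

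The exposed libraries differed little from each other in this ratio (0.890-fold at 12 h relative to 2 h), while in the controls it was 2.19-fold higher at 12 h than at 2 h. The smaller effect at 12 h, by 1.30 on the log2 scale, therefore came with a higher ratio in the 12 h control library. The sum of both genes behaved otherwise. It was 62.3 FPKM in the 12 h exposed library, against 60.6 in the 12 h control library, and 273 FPKM in the 2 h exposed library, against 171 in the 2 h control library. As shares of all FPKM, the sum was 37.4 per 1000000 in the 12 h exposed library, against 53.0 in the 12 h control library, and 218 per 1000000 in the 2 h exposed library, against 346 in the 2 h control library. The direction of the summed difference thus depended on the scaling, whereas that of the ratio did not.

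**Figure D2:**
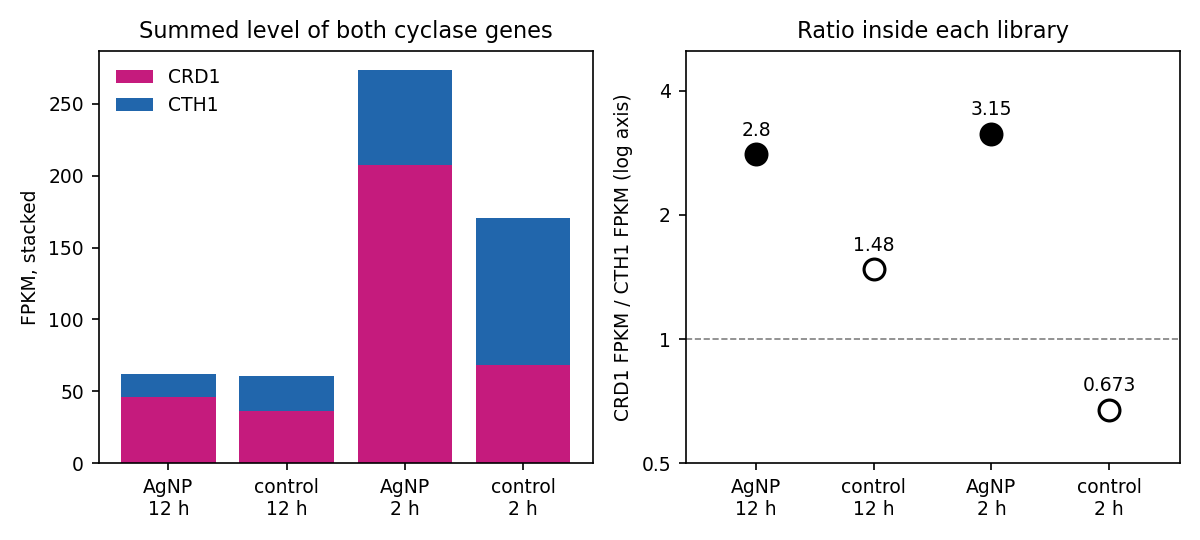
Left, stacked FPKM of CRD1 and CTH1 in the 4 libraries. Right, the CRD1 to CTH1 ratio in each library (log axis, dashed line at 1, filled for AgNPs and open for controls): 2.80 and 3.15 with AgNPs at 12 h and 2 h, 1.48 and 0.673 in the controls.

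Set against the cyclase genes, CPX1 gave scaling-free ratios of its own. CPX1 to CRD1 was 0.369 in the 2 h exposed library, against 0.814 in the 2 h control library, and 0.0704 in the 12 h exposed library, against 0.150 in the 12 h control library. This ratio was lower with AgNPs by similar factors, 0.453-fold at 2 h and 0.470-fold at 12 h. CPX1 to CTH1 was 1.16 in the 2 h exposed library, against 0.547 in the 2 h control library, but 0.197 in the 12 h exposed library, against 0.221 in the 12 h control library. By this measure CPX1 stood higher with AgNPs at 2 h (2.12-fold) and slightly lower at 12 h (0.891-fold). CPX2 is a second gene named for coproporphyrinogen oxidase. The ratio of CPX1 to CPX2 was 6.82 in the 2 h exposed library, against 6.79 in the 2 h control library, and 0.518 in the 12 h exposed library, against 1.28 in the 12 h control library. CPX2 itself stood at 11.2 and 8.21 FPKM in the exposed and control libraries of 2 h, and at 6.24 and 4.24 FPKM in those of 12 h, so CPX1 was the lower gene of this pair in the 12 h exposed library.

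The time differences were larger than those with exposure for CPX1 and CTH1, and for CRD1 in exposed cells. In exposed cells all 3 genes were at least 2-fold lower at 12 h than at 2 h, as 8.07% of compared genes were, and 0 were higher, as 17.1% were. CPX1 was 23.6-fold lower there on the FPKM scale (log2 ratio -4.19), the lowest of all 3271 compared genes, whose median was 0.20. CRD1 was 4.52-fold lower (log2 ratio -2.15, rank 26 from the bottom) and CTH1 4.02-fold lower (log2 ratio -1.94, rank 33). In the controls CPX1 and CTH1 were at least 2-fold lower at 12 h, as 7.8% of compared genes were (20.2% were higher), by 10.3-fold (log2 ratio -3.15, rank 4 from the bottom) and 4.17-fold (log2 ratio -2.02, rank 37). CRD1 was 1.90-fold lower in the controls (log2 ratio -0.91, rank 300), and passed 2-fold with centred ratios (-1.17). CTH1 thus had nearly the same time difference with and without AgNPs, while CPX1 and CRD1 stood further apart in exposed cells, with log2 ratios that were lower in exposed than in control cells (difference of -1.05 for CPX1 and -1.24 for CRD1).

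The last 2 values are also the differences between the AgNP effects, 12 h minus 2 h, since the same 4 libraries give both. CRD1 at -1.24 was at rank 35 from the bottom and CPX1 at -1.05 at rank 85 of the compared genes, of which 2.93% were at least 2-fold lower by this measure and 1.77% higher. CTH1 had 0.07, close to the median of -0.06. With libraries scaled to equal sums the values were -0.44 for CRD1, -0.09 for CPX1 and 0.91 for CTH1, where the median compared gene was itself at 0.70.

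**Figure D3:**
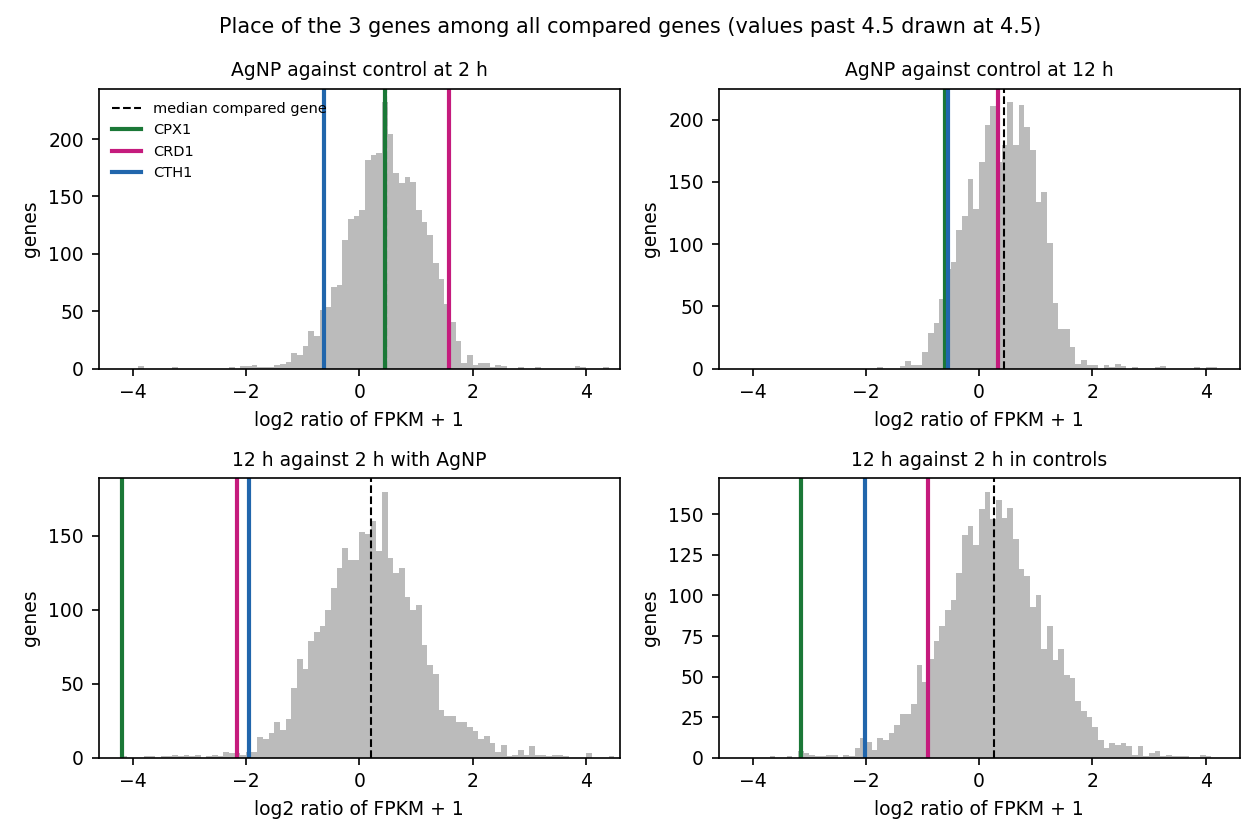
Histograms of the log2 ratio of FPKM + 1 over 3271 compared genes in the 4 comparisons, with the median (dashed) and the 3 genes (coloured lines). At 2 h CRD1 lies in the upper and CTH1 in the lower tail, at 12 h CPX1 and CTH1 lie low, and across time CPX1 lies in the far lower tail.

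Other genes of the pathway were described from a list of 71 symbols, of which 25 were found and 22 reached that mean. Not all of these are genes of heme or chlorophyll synthesis, since HMO1 and SIRB are in the list. Pathway genes under symbols outside the list are not covered, so the list need not be complete. At 2 h all 22 differed by less than 2-fold on log2(FPKM + 1) between exposed and control cells (0 higher, 0 lower) in the values as deposited. Of all compared genes 22.0% were higher and 1.62% lower in these values. Over the 22 genes the median log2 ratio was 0.18, against 0.48 for all compared genes. With equal sums 14 of the 22 were lower, with centred ratios 2 and by median ratio 3. Shares of all compared genes were not counted for these scalings. With equal sums the median compared gene was itself at -0.76. In the values as deposited the places were as follows. CRD1 lay above all 22 of them, and CTH1 above 2. The largest ratio in the list was that of HMO1, a heme oxygenase gene (116 FPKM with AgNPs, 57.7 in the control). Its log2 ratio of FPKM + 1 was 1.00 when rounded, just under the 2-fold limit. SIRB, for the ferrochelatase of siroheme synthesis, followed with 8.91 FPKM in exposed cells and 4.44 in the control, and then UPS1 with 87.8 and 48.4 FPKM in the same order. PCR1 had 35.9 FPKM in exposed cells and 20.4 in the control. No product is given for PCR1 or UPS1, so their place in the pathway is not known here.

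At 12 h the 2-fold limit was passed upward by 2 of the 22 and downward by 1 in the values as deposited. Of all compared genes 16.7% were higher and 0.459% lower in these values. The median of the list was 0.23, against 0.44 for all compared genes. With centred ratios 0 of the 22 passed upward and 2 downward, and with equal sums 0 upward and 3 downward. Shares of all compared genes were not counted for these scalings. POR1, the light-dependent protochlorophyllide reductase that acts after the cyclase, stood at 7.86 FPKM in exposed cells and 18.0 in the control. HEM1, the glutamyl-tRNA reductase gene at the start of the pathway, stood at 7.70 FPKM in exposed cells and 15.9 in the control. Its log2 ratio of FPKM + 1 was -0.96, slightly short of the 2-fold limit. CHLI2, for a subunit of magnesium chelatase, was at 28.0 FPKM in exposed cells and 13.2 in the control, and SIRB at 8.18 with AgNPs and 3.38 in the control. Of the 22 genes, 2 (POR1 and HEM1) lay below CPX1 and CTH1 in this comparison, and 13 below CRD1.

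Measured against the list inside each library, which takes out the scaling, CRD1 stood 4.15-fold above the list's median FPKM in the 2 h exposed library, against 1.497-fold in the 2 h control library, and 4.23-fold above it in the 12 h exposed library, against 2.72-fold in the 12 h control library. In exposed cells it was thus about as far above this median at 12 h as at 2 h. CTH1 stood 1.32-fold above the median in the 2 h exposed library, against 2.23-fold in the 2 h control library, and 1.51-fold in the 12 h exposed library, against 1.85-fold in the 12 h control library. CPX1 was 1.53-fold above the median in the 2 h exposed library, against 1.22-fold in the 2 h control library, but at 0.298 of it in the 12 h exposed library, against 0.408 in the 12 h control library. In the 12 h exposed library 21 of the 22 list genes stood above CPX1.

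Across time most genes of the pathway list stood lower at 12 h. With AgNPs 15 of 22 genes were at least 2-fold lower at 12 h than at 2 h (median -1.66, against 0.20 for all compared genes, of which 8.07% were lower and 17.1% higher). In the controls 14 were (median -1.79, against 0.26 for all compared genes, of which 7.8% were lower and 20.2% higher), and 0 were at least 2-fold higher in either. HMO1 was on the other side, with log2 ratios of 0.47 with AgNPs and 0.63 in the controls, and so was COX10, with 0.03 and 0.25. CHLD, another subunit of magnesium chelatase, stood at 3.66 FPKM at 12 h and 51.6 at 2 h with AgNPs. GUN4, an activator of that enzyme, stood at 1.81 FPKM at 12 h and 33.2 at 2 h in the controls. CPX1 lay below all 22 genes with AgNPs and below 21 in the controls, whereas CRD1 lay above 15 of 22 in the controls and above 7 with AgNPs. These list genes include the magnesium branch, in which CRD1 and CTH1 act.

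**Figure D4:**
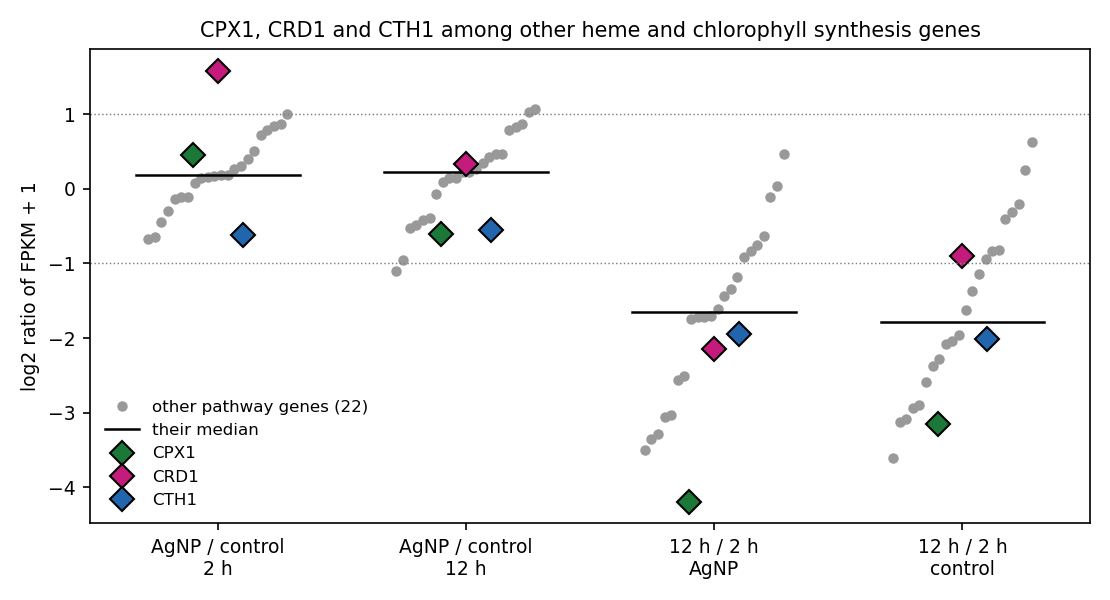
Log2 ratios of FPKM + 1 of the 22 genes of the pathway list, HMO1 and SIRB included (grey points in order of value, line at their median). CPX1, CRD1 and CTH1 are diamonds, in the 4 comparisons, with dotted lines at 2-fold. CRD1 is above all list genes for AgNPs at 2 h, and CPX1 is below all of them for 12 h against 2 h with AgNPs.

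Of other genes known from copper deficiency or copper handling, 15 were found and 8 reached a mean of 5 FPKM. With AgNPs 5 of the 8 were at least 2-fold higher at 2 h and 4 at 12 h, and 0 were lower at either time, with medians of 1.26 and 0.92. Of all compared genes 22.0% were higher at 2 h and 16.7% at 12 h, and 1.62% and 0.459% were lower. The list counts are descriptions and cannot be weighed against these shares, since CYC6 and CTR2 reached the mean of 5 FPKM only through the exposed libraries. Of the 6 genes that reached it in the controls, 3 were higher at 2 h and 2 at 12 h. Without a filter 8 of 15 and 4 of 15 were, against 826 and 689 of all 17741 genes. With centred ratios 4 of the 8 were higher and 1 lower at 2 h, and 2 higher and 1 lower at 12 h. With equal sums these counts were 3 and 1 at 2 h and 2 and 1 at 12 h. Shares of all genes were not counted for these scalings. CYC6, for the cytochrome c6 that stands in for plastocyanin, was listed at 339 FPKM in the 2 h exposed library and at 0 in the 2 h control library, and at 380 in the 12 h exposed library and 0.236 in the 12 h control library. FDX5, a ferredoxin gene, stood at 1199 FPKM in exposed cells and 11.0 in the control at 2 h, and at 251 with AgNPs and 16.8 in the control at 12 h. ATX1 was only just past the limit at 2 h (log2 ratio 1.003), with 1.42 at 12 h. PCY1 had log2 ratios of 1.51 at 2 h and 0.61 at 12 h. COX17 (0.47 and 0.34) and HYDA1 (0.63 and -0.23) were under the limit at both times. CRD1 lay below 3 of the 8 genes at 2 h and below 6 at 12 h, and CPX1 below 7 at both times. CRR1, the regulator, stood at 13.5 FPKM in exposed cells and 24.7 in the control at 2 h, and at 8.30 with AgNPs and 13.7 in the control at 12 h. Its log2 ratios of -0.83 and -0.66 were below those of CTH1 at both times.

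Genes with the most similar pattern were found by the root-mean-square difference of log2(FPKM + 1) over the 4 libraries, each gene centred on its own mean, among 1175 other compared genes with a symbol. Nearest to CPX1 were CHLD (0.27), GUN4 (0.41) and UPD1, a uroporphyrinogen decarboxylase gene (0.43). Nearest to CRD1 were CGL24 (0.24), CGL38 (0.26) and UPD2, also named for uroporphyrinogen decarboxylase (0.31). UPD2 stood at 227 FPKM in the 2 h exposed library, against 138 in the 2 h control library, and at 67.3 FPKM in the 12 h exposed library, against 53.0 in the 12 h control library. Nearest to CTH1 were SCA1 (0.13), SRP43, a subunit of the plastid signal recognition particle (0.13), and PDS1, the phytoene desaturase gene (0.14). These last 3 genes lay at or under 15.1 FPKM in every library, and with a pseudocount of 0.1 only SCA1 was still among the 3 nearest. The trio did not resemble each other to this degree. CTH1 was at place 18 in likeness to CPX1 (0.93), CRD1 at place 51 (1.19), and CTH1 at place 428 in likeness to CRD1 (0.87).

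The 3 loci share neither chromosome nor an overlapping neighbour. Their spans, introns included, were 3942 bp for CPX1, 4530 bp for CRD1 and 3242 bp for CTH1, and 0 other gene loci of the tables overlapped any of them. The nearest locus was Cre07.g346100, which began 71 bp past CRD1 at higher coordinates. It stood at 9.39 FPKM in the 12 h exposed library, against 1.00 in the 2 h exposed library, and at 7.07 FPKM in the 12 h control library, against 0.967 in the 2 h control library. It was thus higher at 12 h where CRD1 was lower. The other 5 flanking loci were at or under 0.790 FPKM in all 4 libraries.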

How the data were processed

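Messenger RNA libraries from 4 groups, 1 library each, were sequenced on an Illumina instrument after Trizol extraction, per the labels' protocols. The values deposited by the authors are FPKM, per the file headers. Cuffdiff (no version) appears in the submitters' processing notes. What aligner, build, filters or scaling between libraries were used is not given in the sources used here. Identifiers carry the suffix of annotation version 5.5. Starts were printed 1-based after adding 1, which made 17558 of the 17738 matched identifiers equal to a RefSeq table of the v5.5 assembly.

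The members and lists were chosen with earlier results of these data known. Log2 ratios of FPKM + 1 were computed, which understates changes of low genes, for genes whose mean reached 5 FPKM, with a 2-fold limit. No test was run at either time alone. A limma 3.58.1 fit (R 4.3.3) of exposure and time over the 4 libraries was added after the data were seen. Named genes were the trio, up to 4 genes per list and comparison with the largest ratios, and the 3 nearest patterns per member. CPX2, COX10, COX17, the time values of HMO1 and the flanking loci were named after their values were seen. So were the exposure values of ATX1, CRR1, HYDA1 and PCY1. Of the lists, 3 pathway and 7 copper genes found did not reach the filter. A planned promoter motif count and protein alignment were not run. The code was tested on simulated data. Alternatives were pseudocounts of 0.1 and 5, filters, fold limits, 3 scalings, centring, removal of a lowess trend (fraction 0.5) with gene span, and the 12 h control for the 2 h effect. The tools were statsmodels 0.14.6 for the trend, pandas 2.3.3 and numpy 2.4.6 under Python 3.11.15, and matplotlib 3.10.9 for plots.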

Additional observations from a re-analysis of the deposited data

Results flagged for a closer look

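For CPX1 the AgNP effect had opposite signs at the 2 times, with a log2 ratio of -0.60 at 12 h and of 0.45 at 2 h. The 12 h effect minus the 2 h effect was -1.05. With 1 library a group, this difference was not tested. Both values were under 2-fold, and the 2 h value was negative when the libraries were scaled to equal sums, by median ratio or with centred ratios.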

How the results depend on the processing

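By replicate number, no paired analysis was possible because the labels give none. With the times as pairs, the mean limma effect on CRD1 (0.96) lost its call when centred (0.58) and with equal sums (0.029), while CTH1 kept its call and CPX1 had none under either. Read depth is unknown, so no interval could be given, and the lowest levels of the trio were those of CPX1 at 12 h. All values below are log2, against a limit of 1.00 (2-fold). For AgNPs at 2 h, CTH1 (-0.62) passed the limit by median ratio (-1.18), with equal sums (-1.96), when centred (-1.10) and without the span trend (-1.10), while CRD1 (1.58) lost it with equal sums (0.25). Setting the 2 h exposed library against the 12 h control gave 3.59 for CPX1 and reversed CTH1 to 1.39. It also gave -1.94 for CTH1 and -0.17 for the CRD1 to CTH1 ratio in the 12 h minus 2 h effect, which then equals 12 h against 2 h in exposed cells. For AgNPs at 12 h, CTH1 reached -1.05 with equal sums, CPX1 -1.04 when centred, and the CRD1 to CTH1 ratio 1.15 without the span trend. CRD1 at 12 h (0.34) was -0.12 by median ratio, -0.10 when centred and -0.19 with equal sums. For 12 h against 2 h in the controls, CRD1 passed the limit by median ratio (-1.22), with equal sums (-2.11) and when centred (-1.17). For the 12 h minus 2 h effect, CPX1 (-1.05) lost it with a pseudocount of 5 (-0.76), by median ratio (-0.84), with equal sums (-0.090), when centred (-0.99) and without the span trend (-0.95), and CRD1 with equal sums (-0.44). The causes were not tested. The other alternatives kept each gene of the trio and the ratio on its side of the limit. The CRD1 to CTH1 ratio for AgNPs at 2 h ranged between 1.09 and 2.41.

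The list counts varied more. In the pathway list, 0 of 22 genes at 2 h became 1 higher with a pseudocount of 0.1, 3 lower by median ratio, 14 lower with equal sums, 2 lower when centred or without the span trend, 17 higher with the 12 h control, and 7 (5 higher, 2 lower) at 1.5-fold. At 1.5-fold 1412 of all 3271 compared genes were higher at 2 h and 193 lower. Shares of all compared genes were not counted for the pseudocounts, scalings, centring, span trend or 12 h control. At 12 h the 3 genes became 0 with a pseudocount of 5, 7 at 1.5-fold and 0 at 4-fold, and for 12 h against 2 h in exposed cells the 15 became 7 at 4-fold. Of all 3271 compared genes, 1345 were higher and 163 lower at 12 h at 1.5-fold, and 21 higher and 0 lower at 4-fold. For 12 h against 2 h in exposed cells 29 of them were lower and 104 higher at 4-fold. In the copper list, the 5 genes at 2 h became 3 without the span trend, with the 12 h control or at 4-fold, and 8 of 15 without a filter, and the 4 at 12 h became 2 at 4-fold. At 4-fold 31 of 3271 compared genes were higher at 2 h and 21 at 12 h, and without a filter 826 of 17741 genes were higher at 2 h. As above, the filtered copper counts cannot be weighed against such shares. For 12 h against 2 h the 2 copper genes in exposed cells became 5 of 15 without a filter, 4 at 1.5-fold and 1 at 4-fold or with a mean of 20 FPKM. The 2 were lower, as 8.07% of compared genes were, while 17.1% were higher. Without a filter 497 of 17741 genes were lower and 962 higher, and at 1.5-fold 590 of 3271 lower and 1039 higher. At 4-fold 29 of 3271 were lower, and with a mean of 20 FPKM 95 of 1242. The 1 higher gene in the controls became 2 higher with a pseudocount of 0.1, 1 higher and 1 lower by median ratio or when centred, 0 higher and 2 lower with equal sums, 3 higher of 15 without a filter, 2 higher and 1 lower (3 in all) at 1.5-fold, and 0 at 4-fold or with a mean of 20 FPKM. In the controls 20.2% of compared genes were higher and 7.8% lower. Without a filter 1022 of 17741 genes were higher and 552 lower, and at 1.5-fold 1151 of 3271 higher and 524 lower. At 4-fold 97 of 3271 were higher, and with a mean of 20 FPKM 386 of 1242. With a pseudocount of 0.1 the nearest patterns were the same 3 genes for CRD1, 2 of 3 for CPX1 (CHLI1 in place of GUN4) and 1 of 3 for CTH1 (PYK5 and FAD3 beside SCA1).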
